A study of Mus musculus with 32 samples.

Results

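The small leucine-rich proteoglycans (SLRPs) were examined across the stromal and osteogenic cells that grew from mouse bone marrow. The 8 members were taken by gene symbol and comprised decorin (*Dcn*), biglycan (*Bgn*), asporin (*Aspn*), fibromodulin (*Fmod*), lumican (*Lum*), osteomodulin (*Omd*), the proline and arginine rich repeat protein *Prelp* and osteoglycin (*Ogn*). All 8 were present among the 31053 genes of the count matrices, and the rule by symbol used no measured value, although the list was drawn up with earlier results of these data known. SLRPs are secreted matrix proteins built around a run of leucine-rich repeats, and many of them bind fibrillar collagen and influence how fibrils form and how wide they grow. They carry chondroitin or dermatan sulfate chains (*Dcn*, *Bgn*), keratan sulfate chains or sulfated tyrosines (*Fmod*, *Lum*, *Omd*), or little glycosaminoglycan (*Aspn*, *Prelp*). In bone they lie in the collagenous matrix that osteoblasts lay down and mineralise, and *Bgn*, *Dcn*, *Omd* and *Ogn* are among those long known from that tissue.

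The material was BMSC-OBs, stromal cells of the bone marrow that had been cultured towards osteoblasts, from 77 Diversity Outbred (DO) mice, an outbred population descended from several inbred founder strains. Marrow from the femur was grown to confluence, differentiated in medium with ascorbic acid, β-glycerophosphate and dexamethasone, and released from the mineralised culture with EDTA, collagenase and trypsin. Cells of 4 to 5 mice were combined into each of 16 pools (numbered 1 to 14, 17 and 18), and each pool was profiled by droplet-based 3' RNA-seq in 2 sequencing runs, which gave 32 samples. Every pool had the same culture and no pool was treated differently, so the comparisons run between kinds of cell within pools. The labels used here give no age, sex or genotype for single mice, and the mouse of origin of each cell was not analysed here. The pool is therefore the replicate, each pool being a mixture of mice, and values below come from 1 run, of whose barcodes 98.2% also occurred in the other.

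In that run the pools held 107853 barcodes, with 53990642 to 100777353 unique molecular identifiers (UMIs) per pool, and 88909 cells passed the filters on genes and on mitochondrial and ribosomal UMIs. The median cell held from 2782 UMIs in pool 13 to 15273 in pool 5. This median is over all kept cells of a pool, whatever their kind. Of 106313 distinct barcodes, 1521 (1.43%) occurred in more than 1 pool. Free RNA in a capture gives UMIs in cells that do not express a gene, so the leukocytes of the same captures are given as a background for each member.

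Cells were not clustered. Each cell was assigned by gates on marker genes, none of which is a member, and the gated groups carry the names that the study uses for its clusters with "-like" added, since the groups were rebuilt here and need not hold the same cells. The gates gave 7960 cells resembling late mesenchymal progenitors (LMP-like; *Acta2*, *Tagln*, *Col3a1* among the markers), 6516 marrow adipogenic lineage progenitors (MALP-like; *Cxcl12*, *Adipoq*, *Lpl*), 3077 osteoblast progenitors (OBP-like; *Sp7*, *Alpl*, *Runx2*), 5423 cells of the first mature osteoblast type (OB1-like; *Bglap*, *Mepe*, *Thbs4*), 5255 of the other (OB2-like; *Ero1l*, *Ndrg1*, *Pgk1*) and 3362 osteocyte-like cells (Ocy-like; *Dmp1*, *Phex*, *Sost*). Together these were 31593 cells, 35.5% of those kept. All 6 groups were present with at least 20 cells in 16 pools except the OB2-like group, which pools 1 and 2 lacked, so that its n is 14. Between 4.54% (MALP-like) and 26.0% (OBP-like) of the cells in a group lay close to a gate boundary. By the construction of the gates, 47 of the 50 gate markers were highest in their own group. The exceptions were *Alpl*, highest in OB2-like cells, and *Dlx5* and *Car3*, highest in MALP-like cells.

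Of the 8 members, 7 lie next to another member in the genome, in the clusters known for this gene family. In the mouse build GRCm38 with GENCODE M21 genes, *Prelp* (chr1:133910304-133921414, minus strand) and *Fmod* (chr1:134037254-134048277, plus strand) are separated by 115.8 kb. *Dcn* (chr10:97479609-97518143) and *Lum* (chr10:97565128-97572703) both lie on the plus strand, 47.0 kb apart. *Aspn* (chr13:49544443-49567565), *Omd* (chr13:49582462-49592822) and *Ogn* (chr13:49608046-49624501) follow each other on the plus strand with gaps of 14.9 and 15.2 kb. *Bgn* stands alone on the X chromosome (chrX:73483602-73495933, plus strand). No other protein-coding gene lies wholly inside any of these gaps. The *Aspn*, *Omd* and *Ogn* genes all lie within *Cenpp*, a centromere protein gene read from the opposite strand, of which 1 exon overlaps *Aspn* and none overlaps *Omd* or *Ogn*. The strand setting of the counting is not given in the sources used here.

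The 250 bases before the RefSeq starts of *Aspn*, *Omd* and *Ogn* are shown because these tandem neighbours had 3 different patterns among the cell groups, described below. They are plus-strand sequences of GRCm38.p6, at chr13:49544193-49544442, chr13:49582212-49582461 and chr13:49607765-49608014, and the RefSeq start of *Ogn* lies upstream of the GENCODE start. Capitals mark matches, on either strand, to 6 motifs that were searched, namely TATAAA (the box bound by TBP), GGAATG (TEAD), TGTGGT (RUNX), TGANTCA (AP-1), CCCNNGGG (EBF) and the CArG box of serum response factor.
Aspn: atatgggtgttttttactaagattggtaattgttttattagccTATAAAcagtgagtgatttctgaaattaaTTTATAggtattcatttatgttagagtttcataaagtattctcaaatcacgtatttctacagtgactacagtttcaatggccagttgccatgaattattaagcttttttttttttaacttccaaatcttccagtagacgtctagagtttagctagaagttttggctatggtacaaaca
Omd: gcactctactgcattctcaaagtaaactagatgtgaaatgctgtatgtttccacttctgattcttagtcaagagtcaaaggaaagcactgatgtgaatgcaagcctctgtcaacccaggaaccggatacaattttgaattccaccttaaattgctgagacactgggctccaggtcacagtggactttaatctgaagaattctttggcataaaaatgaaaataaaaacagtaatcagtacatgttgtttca
Ogn: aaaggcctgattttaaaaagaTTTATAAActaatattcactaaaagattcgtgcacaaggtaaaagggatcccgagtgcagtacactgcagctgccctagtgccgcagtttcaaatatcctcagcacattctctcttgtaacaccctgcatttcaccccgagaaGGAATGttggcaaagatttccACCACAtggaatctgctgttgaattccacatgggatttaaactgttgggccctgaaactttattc

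The *Aspn* sequence was the most AT-rich of the 3, with a GC content of 30%, against 38.4% for *Omd* and 42.0% for *Ogn*. It held TATAAA at -207 (counted from the start, with -1 the base before it) and its reverse complement at -178. The *Ogn* sequence held TATAAA in both directions, in overlapping matches at -229 and -227, a GGAATG at -86 and the reverse complement of TGTGGT at -65. The *Omd* sequence held none of the 6 motifs. Among 32851 mouse promoters of 300 bases (250 before and 50 after the start), TATAAA occurred in 13.6%, GGAATG in 14.7%, TGTGGT in 16.8%, TGANTCA in 7.81%, CCCNNGGG in 13.7% and the CArG box in 1.63%, so that the matches are ordinary ones. Of the members, 6 had a promoter in the RefSeq table, and the windows of *Bgn*, *Fmod* and *Prelp* held none of these motifs. A match is a stretch of letters and not a measured binding site.

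Levels are given as UMIs per 10,000, meaning the UMIs of a gene out of every 10,000 UMIs summed over the cells of a group in a pool. The assay counts 3' ends, so a level does not grow with the length of the transcript, although capture may differ between genes. The 8 members together took 32.8 ± 5.03 (SD, n = 16) UMIs per 10,000 in LMP-like cells, ranging from 24.7 to 42.2 over pools with a median of 32.1. In MALP-like cells they took 31.2 ± 4.32 (24.2 to 41.3, median 30.5). The 4 osteoblast-lineage groups lay lower on this scale, at 15.7 ± 2.63 in OBP-like, 19.3 ± 3.12 in OB1-like, 16.6 ± 3.10 (n = 14) in OB2-like and 18.7 ± 3.52 in Ocy-like cells. Such sums depend on how the groups are scaled, as described below, and were not rescaled. In macrophage-like cells (4574 cells, gated on *C1qa*, *Adgre1* and *Csf1r* among others), the sum was 1.09 ± 0.363.

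The make-up of that sum also differed between groups. *Bgn* was the most abundant member in every group and made up 37.6% of the summed member UMIs in LMP-like, 48.2% in MALP-like, 55.7% in OBP-like, 66.4% in OB2-like, 76.9% in OB1-like and 90.4% in Ocy-like cells. *Ogn* was the second member by level in LMP-like and MALP-like cells, with 19.3% and 39.8%, and fell to 5.39% or less of the sum in the 4 osteoblast-lineage groups. *Aspn* contributed 16.2% in LMP-like and 2.86% in MALP-like cells. *Fmod* contributed 11.0% in LMP-like, 0.878% in MALP-like, 13.5% in OBP-like and 15.3% in OB2-like cells.

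**Figure D1:**
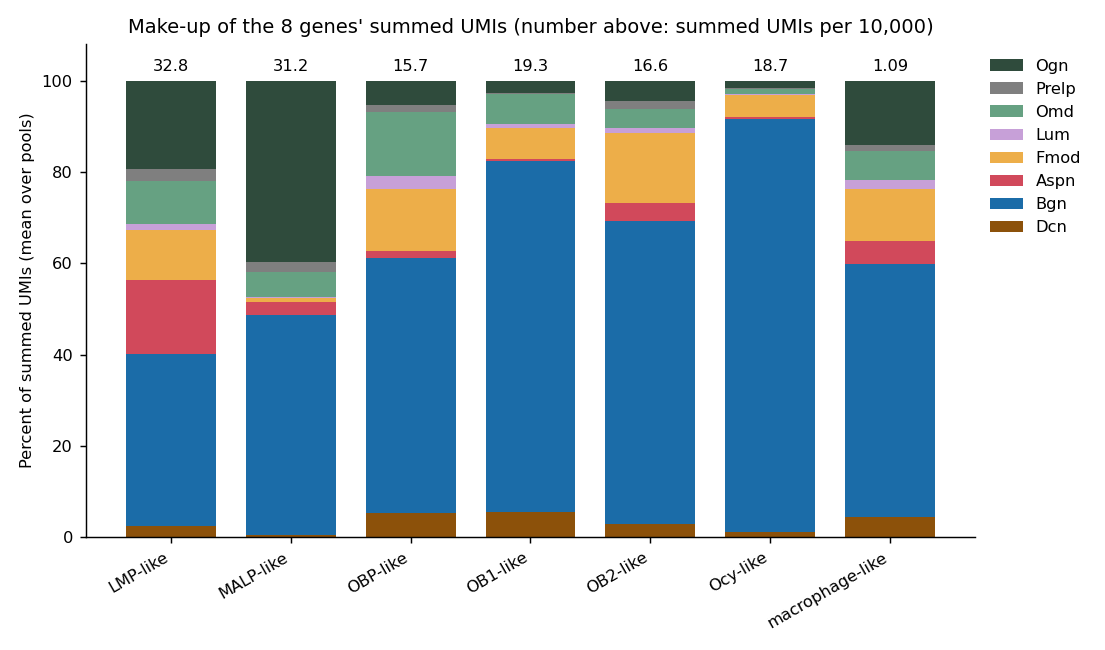
Make-up of the summed SLRP UMIs. Each bar is a gated cell group, the vertical axis is the percent of the summed UMIs of the 8 members, the colours are the members, and the number given with each bar is the summed level in UMIs per 10,000 (mean over pools). The *Bgn* segment is narrowest in LMP-like cells (37.6%) and widest in Ocy-like cells (90.4%), and the *Ogn* segment is widest in MALP-like cells (39.8%).

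A few genes took a large part of the UMIs in the osteoblast-lineage groups, which lowers the share left for all others. Bone sialoprotein (*Ibsp*), a mineral-binding matrix protein, alone took 5.47% of UMIs in OBP-like, 8.72% in OB1-like, 5.78% in OB2-like and 9.62% in Ocy-like cells, and the 20 most abundant genes took 12.0% in MALP-like against 32.0% in OB1-like cells. The tests below scale the groups by the TMM method, which sets most genes level with each other. Scaling by library size alone moved the median log2 fold change of all genes to 0.25 in MALP-like against LMP-like, -0.24 in OBP-like against LMP-like, -0.33 in OB1-like against OBP-like, 0.13 in OB2-like against OB1-like and 0.24 in Ocy-like against OB1-like cells, from 0.04, -0.01, -0.04, 0.01 and 0.02 with TMM. Of the genes called, 52.9%, 49.2%, 46.0%, 51.1% and 51.1% were higher with TMM and 72.8%, 27.1%, 14.9%, 65.0% and 82.6% by library size alone, in the same order. Levels per 10,000 follow the library size scale and the fold changes follow TMM. It is said where a member's direction differs between them in a fitted comparison. Other pairs of groups were ordered by level only, and whether their order holds with TMM was not tested.

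Among the class I members, *Dcn*, which binds collagen and sequesters TGF-β, was low throughout. In OB1-like cells its lowest, median and highest levels over pools were 0.486, 0.828 and 2.46 UMIs per 10,000 (mean 1.06 ± 0.620, SD, n = 16). It stood at 0.246, 0.736 and 1.89 in OBP-like cells (0.852 ± 0.477) and at 0.385, 0.761 and 1.41 in LMP-like cells (0.802 ± 0.354). These 3 groups overlapped widely and their neighbours in order did not differ beyond the spread over pools in exact sign-flip permutation tests on the paired pool differences (two-sided p = 0.314 for OB1-like against OBP-like and 0.520 for OBP-like against LMP-like, n = 16). OB2-like cells followed at 0.467 ± 0.206 (n = 14). Ocy-like cells (0.225 ± 0.0866) and MALP-like cells (0.175 ± 0.188) came last, Ocy-like cells being higher in 12 of 16 pools (exact p = 0.393). The MALP-like values were 0.0525, 0.124 and 0.863, and the highest belonged to pool 11, in which macrophage-like cells also had their highest *Dcn* (0.338). Without pool 11 the means were 0.130 in MALP-like and 0.0341 in macrophage-like cells, and the paired difference between Ocy-like and MALP-like cells was 0.0957 ± 0.0905 (SD, n = 15, exact p = 0.00153) in place of 0.0493 ± 0.205 over all 16 pools. Summed over pools, *Dcn* was at 0.128 in osteoclast-like, 0.129 in B cell-like, 0.0567 in T cell-like and 0.0337 in granulocyte-like cells.

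*Bgn*, a matrix ligand of growth factors and of Toll-like receptors that is well known from bone, was high in all 6 groups. The Ocy-like pools ran from 9.76 to 22.5 UMIs per 10,000 with a median of 17.0 (16.9 ± 3.42, SD, n = 16). MALP-like pools followed at 8.30, 15.5 and 20.3 (15.04 ± 3.21) and OB1-like pools at 10.9, 14.5 and 19.5 (14.8 ± 2.77). These levels did not differ beyond the spread over pools (exact p = 0.799). They follow the library size scale, and MALP-like and OB1-like cells were not compared with TMM. LMP-like pools had 7.64, 12.7 and 15.9 (12.3 ± 2.38), close to OB2-like pools with 6.36, 10.8 and 16.2 (11.1 ± 2.68, n = 14, exact p = 0.106). OBP-like pools were lowest, at 4.91, 8.86 and 14.4 (8.85 ± 2.37). The mean in macrophage-like cells was 0.597 ± 0.194. The ratio of the highest to the lowest group mean was the smallest among the members, and every mesenchymal pool lay above every macrophage-like pool.

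*Aspn*, a relative of decorin with a run of acidic residues, was highest in LMP-like cells. LMP-like pools held 2.20, 5.44 and 8.93 UMIs per 10,000 (5.39 ± 1.85, SD, n = 16). MALP-like pools held 0.441, 0.797 and 1.38 (0.891 ± 0.299), all below every LMP-like pool. OB2-like pools spread from 0.0840 to 1.52 with a median of 0.506 (0.605 ± 0.380, n = 14), overlapping the MALP-like pools. OBP-like cells had 0.259 ± 0.106. The OB1-like (0.0671 ± 0.0378) and Ocy-like (0.0875 ± 0.0542) levels did not differ from each other (exact p = 0.167) and lay near the macrophage-like level of 0.0536 ± 0.0313. Macrophage-like cells were shallower, with a median of 5624.5 UMIs against 20474 in OB1-like and 15006 in Ocy-like cells. The part of free RNA in these levels was not tested. Within pools, OB1-like cells were above macrophage-like cells in 12 of 16 and Ocy-like cells in 10 of 16.

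Of the class II members, *Fmod*, which binds type I collagen and slows fibril growth, was highest in LMP-like pools with 1.52, 3.79 and 5.18 UMIs per 10,000 (3.61 ± 1.24, SD, n = 16). OB2-like pools had 0.690, 2.70 and 4.28 (2.58 ± 0.910, n = 14) and OBP-like pools 0.745, 1.96 and 3.43 (2.13 ± 0.637), which overlapped (exact p = 0.0730). OB1-like (1.30 ± 0.436) and Ocy-like cells (0.882 ± 0.322) followed, and MALP-like pools were lowest at 0.0914, 0.261 and 0.527 (0.268 ± 0.124), below every LMP-like pool. The MALP-like mean compares with 0.127 ± 0.0928 in macrophage-like cells. Pool 6 had the lowest *Fmod* in all 6 groups.

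*Lum*, the keratan sulfate proteoglycan best known for ordering collagen fibrils in the cornea, had the lowest mean of the 8 members in LMP-like, MALP-like, OB2-like and Ocy-like cells, while *Prelp* and *Aspn* lay below it in OBP-like and OB1-like cells. It reached 0.121, 0.434 and 0.822 UMIs per 10,000 in LMP-like pools (0.464 ± 0.194, SD, n = 16) and 0.0611, 0.414 and 0.822 in OBP-like pools (0.428 ± 0.238), which did not differ (exact p = 0.480). OB2-like (0.176 ± 0.118, n = 14) and OB1-like cells (0.142 ± 0.154) did not differ either (exact p = 0.767). The OB1-like mean rested in part on pool 10, at 0.626, without which it was 0.110. MALP-like (0.0694 ± 0.0583) and Ocy-like cells (0.0424 ± 0.0313) had the lowest levels (exact p = 0.0533 between them), and Ocy-like cells of pool 7 had no UMI of the gene, which allows a level of up to 0.0235. Macrophage-like cells had 0.0280 ± 0.0598, and 0.0133 without pool 11.

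*Omd*, a keratan sulfate proteoglycan of mineralised tissues that binds hydroxyapatite, was most abundant in LMP-like cells. Its lowest, median and highest levels were 1.72, 3.27 and 4.44 UMIs per 10,000 in LMP-like pools (3.09 ± 0.798, SD, n = 16), 1.28, 2.14 and 2.84 in OBP-like pools (2.13 ± 0.50) and 0.671, 1.63 and 2.93 in MALP-like pools (1.66 ± 0.538). OB1-like pools had 0.360, 1.22 and 2.30 (1.31 ± 0.626), OB2-like pools 0.347, 0.662 and 1.24 (0.682 ± 0.250, n = 14) and Ocy-like pools 0.103, 0.209 and 0.314 (0.210 ± 0.0591). Neighbours in this order differed at unadjusted exact p-values of 0.0196 or less, except MALP-like against OB1-like cells (exact p = 0.0415), a pair that would not stay under 0.05 if adjusted for the 40 pairs tested. That pair was ordered by level only and was not compared with TMM. All Ocy-like pools lay below all OB1-like pools. The Ocy-like level compares with 0.0655 ± 0.0395 in macrophage-like cells. Summed over pools, *Omd* was at 0.164 in granulocyte-like, 0.100 in T cell-like, 0.107 in B cell-like and 0.102 in osteoclast-like cells.

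*Prelp*, a basic SLRP that binds heparan sulfate and collagen, was low in every group. LMP-like pools had 0.480, 0.887 and 1.44 UMIs per 10,000 (0.893 ± 0.298, SD, n = 16) and MALP-like pools 0.339, 0.563 and 1.70 (0.659 ± 0.327, exact p = 0.0121), of which pool 11 was the highest. OB2-like (0.283 ± 0.117, n = 14) and OBP-like cells (0.237 ± 0.143) did not differ (exact p = 0.450). OB1-like (0.0537 ± 0.0232) and Ocy-like cells (0.0455 ± 0.0248) were lowest (exact p = 0.218 between them), against 0.0142 ± 0.0167 in macrophage-like cells.

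The class III member *Ogn*, a small proteoglycan also called mimecan, was the member most skewed to the MALP-like group. MALP-like pools held 8.37, 11.6 and 21.1 UMIs per 10,000 (12.4 ± 3.43, SD, n = 16) and LMP-like pools 3.37, 6.48 and 9.73 (6.29 ± 1.55), with MALP-like cells higher in 16 of 16 pools. All other groups were below 1 on average. OBP-like pools had 0.426, 0.811 and 1.36 (0.807 ± 0.224) and OB2-like pools 0.321, 0.598 and 1.58 (0.708 ± 0.407, n = 14, exact p = 0.380 between them). OB1-like (0.492 ± 0.200) and Ocy-like cells (0.271 ± 0.124) came last. Macrophage-like cells had 0.151 ± 0.0750, and Ocy-like cells were above those of the same pool in 13 of 16 pools. Summed over pools, granulocyte-like cells had 0.332, osteoclast-like cells 0.602 and B cell-like cells 0.720. The Ocy-like, OB1-like and OB2-like means lie within the range of these leukocyte groups. The upper end of that range comes from 206 B cell-like and 1061 osteoclast-like cells, whose gates set no upper limit on stromal-marker UMIs. They were shallower, with median depths of 7044.5 and 7463 UMIs against 20474 in OB1-like cells. The part of free RNA and of droplets with more than 1 cell was not tested. Pool 6 had the highest *Ogn* in OBP-like, OB1-like, OB2-like, Ocy-like and macrophage-like cells alike.

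In all, 40 pairs of neighbours in the order of the groups were tested for the 8 members, and the p-values above are not adjusted for that number. Leaving out single pools took 6 of the pairs across an exact p of 0.05. *Dcn* in Ocy-like and MALP-like cells crossed it without pool 11, as given above, and *Prelp* in OB1-like and Ocy-like cells without pool 2 (exact p = 0.0396). *Fmod* in OB2-like and OBP-like cells came under it without pool 10, 11 or 14 (lowest exact p = 0.0444), and *Lum* in MALP-like and Ocy-like cells without pool 8, 9, 13, 14 or 17 (lowest exact p = 0.0196). *Omd* in MALP-like and OB1-like cells passed over it without any of pools 1, 2, 3, 4, 5, 7, 8, 10, 12, 13 or 18 (highest exact p = 0.0799), and *Aspn* in MALP-like and OB2-like cells, at an exact p of 0.0344 over 14 pools, without any of pools 3, 4, 5, 7, 8, 10, 12, 13 or 17 (highest exact p = 0.0662). The smallest p that these permutations can give is 3.05e-05 for 16 pools and 0.000122 for 14. Of the members, *Aspn*, *Fmod*, *Lum*, *Omd* and *Prelp* were highest in LMP-like, *Ogn* in MALP-like, *Dcn* in OB1-like and *Bgn* in Ocy-like cells by level. The highest group was the same under each of the 9 other ways of computing the levels that were tried, all of which used library size. The LMP-like gate holds the matrix genes *Col3a1* and *Col8a1*, and each of these ways kept them in it. The part of this in the LMP-like levels and in the comparisons with LMP-like cells was not tested. With TMM, as given below, *Bgn* was not higher in Ocy-like than in OB1-like cells. Nor was *Lum* higher in LMP-like than in OBP-like cells, and neither pair was called.

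The first comparison, MALP-like against LMP-like cells, follows the branch of the study's trajectory that leads from stromal progenitors to the adipogenic lineage. In it 7 of the 8 members were called at a Benjamini-Hochberg adjusted p of at most 0.05 in edgeR's quasi-likelihood test on UMI sums with pool as a block, where 74.7% of all 11642 genes were called. Of these 6 were lower, against 35.2% of all genes, and 1 higher, against 39.5%. With at least a 2-fold change, 5 members were lower, against 6.69% of all genes, and 0 higher, against 7.68%. The median log2 fold change was -1.83 over the 8 members and 0.04 over all genes. *Fmod* fell most, 16.2-fold (log2 fold change -4.02 ± 0.10, SE, adjusted p = 4.66e-19), and *Aspn* fell 6.98-fold (log2 fold change -2.80 ± 0.12, adjusted p = 1.04e-14). In both genes the ranges of the pools in the 2 groups did not overlap. The share of all genes without overlap was not computed, here or in the comparisons below. Non-overlap is therefore a description and is not shown to be particular to the members. *Lum* fell by 2.99 ± 0.24 on the log2 scale (adjusted p = 2.86e-10) and *Dcn* by 2.54 ± 0.19 (adjusted p = 6.3e-11), with overlapping ranges. *Omd* fell 2.20-fold (log2 fold change -1.13 ± 0.12, adjusted p = 1.67e-08) and *Prelp* 1.59-fold (-0.67 ± 0.14, adjusted p = 0.000155).

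*Ogn* went the other way and rose 1.69-fold (log2 fold change 0.76 ± 0.07, adjusted p = 3.42e-09). *Bgn* was not called, with a log2 fold change of 0.07 ± 0.05 and a 95% interval from -0.03 to 0.17 (adjusted p = 0.244). Its level per 10,000 was nevertheless higher in MALP-like cells in 16 of 16 pools, and with scaling by library size alone the log2 fold change was 0.29 and called. The tandem neighbours *Aspn*, *Omd* and *Ogn*, whose upstream sequences are shown above, thus had log2 fold changes of -2.80, -1.13 and 0.76 between the same cells.

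The second comparison, OBP-like against LMP-like cells, is the entry into the osteoblast lineage. Of the 8 members 7 were called, where 70.5% of all genes were, with 1 higher (34.7% of all genes) and 6 lower (35.9%). Past a 2-fold change 3 were lower, against 9.17% of all genes, and 0 higher, against 6.94%. The median log2 fold change was -0.40 over the members and -0.01 over all genes. *Aspn* fell 17.2-fold (log2 fold change -4.11 ± 0.13, adjusted p = 1.83e-18) and *Ogn* 6.71-fold (-2.75 ± 0.11, adjusted p = 3.57e-16), each with no overlap between the pools of the groups. *Prelp* fell 3.30-fold (-1.72 ± 0.13, adjusted p = 3.35e-11). These 3 were thus at much lower levels, while *Fmod*, *Omd* and *Bgn* fell little, by 0.50 ± 0.09, 0.30 ± 0.08 and 0.26 ± 0.06 on the log2 scale (adjusted p = 1.46e-05, 0.00292 and 0.000590). The *Bgn* call was lost without the pool block (log2 fold change -0.24, adjusted p = 0.0851).

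*Dcn* was higher by a log2 fold change of 0.28 ± 0.10 (adjusted p = 0.0152), a call that several alternatives lost and an LMP-like gate without contractile genes turned to -0.042. *Lum* was not called (log2 fold change 0.03 ± 0.13, 95% interval -0.22 to 0.28, adjusted p = 0.856), and its direction depended on the settings. By library size alone the log2 fold change was -0.21, its level was lower in OBP-like cells in 11 of 16 pools, and with that LMP-like gate it was called lower (-0.34, adjusted p = 0.0474). In this comparison *Omd* therefore differed from both of its tandem neighbours in size, its 2 neighbours having fallen 17.2-fold and 6.71-fold and itself 1.23-fold. No test of the difference between genes was made.

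**Figure D2:**
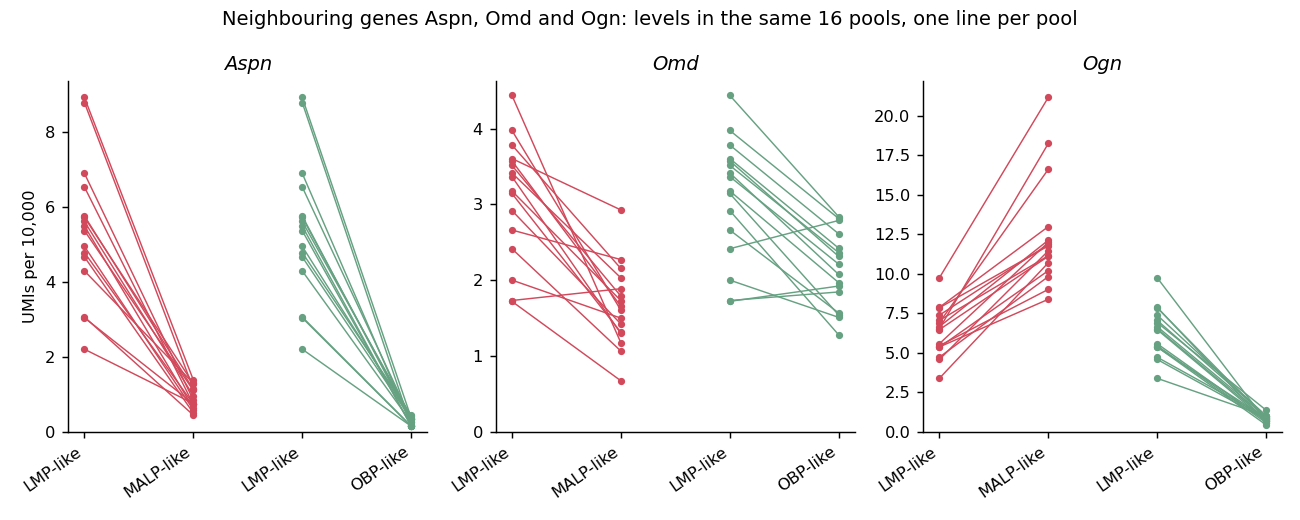
The tandem genes *Aspn*, *Omd* and *Ogn* in LMP-like, MALP-like and OBP-like cells. Each line joins the 2 groups of a pool, the vertical axis is UMIs per 10,000 on a linear scale from 0, and 16 pools are drawn. *Aspn* lines fall in both comparisons, *Ogn* lines rise from LMP-like to MALP-like cells in 16 of 16 pools and fall to OBP-like cells, and *Omd* lines are the flattest on the way to OBP-like cells (LMP-like mean 3.09, OBP-like mean 2.13).

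From OBP-like to OB1-like cells, the step towards the mature osteoblast, 8 of the 8 members were called, against 57.0% of all genes, 2 of them higher (26.2% of all genes) and 6 lower (30.8%). Here 1 member was higher by at least 2-fold, against 3.49% of all genes, and 3 were lower, against 1.61%. The members' median log2 fold change was -0.48 and that of all genes -0.04. *Bgn* rose 2.08-fold (log2 fold change 1.06 ± 0.07, adjusted p = 2.1e-11). *Prelp* fell 3.55-fold (-1.83 ± 0.15, adjusted p = 3.11e-10), *Aspn* 3.21-fold to near the macrophage-like level (-1.68 ± 0.14, adjusted p = 4.85e-10) and *Lum* 2.84-fold (-1.51 ± 0.25, adjusted p = 1.91e-05). *Omd*, *Ogn* and *Fmod* fell less, by 0.51 ± 0.15, 0.45 ± 0.09 and 0.44 ± 0.06 on the log2 scale (adjusted p = 0.00678, 0.000135 and 1.89e-06). The *Omd* call was lost without the pool block (log2 fold change -0.42, adjusted p = 0.0713) and with at least 50 cells per pool and group (-0.36, adjusted p = 0.0563).

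*Dcn* was called higher in OB1-like cells with a log2 fold change of 0.60 ± 0.20 (adjusted p = 0.0131). Its level was higher in only 8 of 16 pools, with the OB1-like maxima of 2.46 and 2.45 in pools 10 and 18, and the exact test on levels given above did not reach 0.05. This call was lost without the pool block (log2 fold change 0.56, adjusted p = 0.0870) and with scaling by library size alone (0.31).

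Between the mature osteoblast types, 7 of 8 members were called in OB2-like against OB1-like cells over 14 pools, where 65.0% of all genes were called, with 4 higher (33.2% of all genes) and 3 lower (31.7%). At least a 2-fold change was found for 2 higher members, against 6.23% of all genes, and 1 lower, against 3.61%. The median was 0.29 over the members and 0.01 over all genes. *Aspn* was 6.77-fold higher in OB2-like cells (log2 fold change 2.76 ± 0.20, adjusted p = 7.6e-10), measured against an OB1-like level that is near the macrophage-like level. *Prelp* was 4.16-fold higher (2.06 ± 0.17, adjusted p = 5.18e-09) with no overlap of pools, and *Fmod* 1.82-fold higher (0.87 ± 0.10, adjusted p = 2.35e-07). *Dcn* fell 2.48-fold (-1.31 ± 0.23, adjusted p = 5.85e-05), *Omd* 1.91-fold (-0.93 ± 0.19, adjusted p = 0.000228) and *Bgn* 1.46-fold (-0.54 ± 0.08, adjusted p = 6.7e-06).

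*Ogn* was just past the threshold (log2 fold change 0.37 ± 0.15, adjusted p = 0.0372), and leaving out any of 8 of the 14 pools (4, 5, 6, 7, 10, 11, 12 or 18) lost the call, with values from 0.29 to 0.36 and adjusted p up to 0.0907. It was also lost without the pool block (0.46, adjusted p = 0.0744) and in the other run, with both runs, with a larger gate lead, with at least 50 cells and in cells without leukocyte UMIs. *Lum* was not called (0.22 ± 0.36, 95% interval -0.48 to 0.93, adjusted p = 0.608). The OB2-like cells were gated on genes such as *Ero1l*, *Ndrg1*, *Bnip3*, *Egln3* and *Pgk1*, which are known to respond to low oxygen. A cell also had to score lower on the lists of the other groups, and those hold matrix genes such as *Bglap*, *Mepe*, *Thbs4* and *Col11a1* for OB1-like and *Col3a1* and *Col8a1* for LMP-like cells. The part of this in the contrast was not tested.

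In Ocy-like against OB1-like cells, the last step of the osteogenic branch, 6 of 8 members were called, where 55.1% of all genes were, and all 6 were lower (27.0% of all genes). Past a 2-fold change 4 were lower, against 2.41% of all genes, and 0 higher, against 2.12%. The median was -0.91 over the members and 0.02 over all genes. *Omd* fell 6.91-fold (log2 fold change -2.79 ± 0.11, adjusted p = 9.41e-16) and *Dcn* 5.01-fold (-2.33 ± 0.17, adjusted p = 2.2e-11), and in both the pools of the groups did not overlap. *Lum* fell 3.37-fold (-1.75 ± 0.22, adjusted p = 3.81e-07) to 0.0424 UMIs per 10,000, above the macrophage-like level of the same pool in 12 of 16 pools. *Ogn* fell 2.06-fold (-1.04 ± 0.12, adjusted p = 3.79e-08) and *Fmod* 1.71-fold (-0.78 ± 0.06, adjusted p = 2.55e-10). Both *Ogn* levels lay within the range of the leukocyte groups given above, with the limits given there.

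The *Prelp* call in Ocy-like against OB1-like cells (log2 fold change -0.51 ± 0.17, adjusted p = 0.0150) concerned levels of 0.0455 and 0.0537 UMIs per 10,000 and was lost under 6 alternatives. *Bgn* was not called, with a log2 fold change of -0.04 ± 0.05 and a 95% interval from -0.14 to 0.06 (adjusted p = 0.537), and its direction depended on the scaling, since by library size alone it was 0.19 and called (adjusted p = 0.00162). *Aspn* was not called either (0.16 ± 0.19, 95% interval -0.21 to 0.54, adjusted p = 0.498), both levels being near the macrophage-like level. Comparisons that share a cell group, such as the 2 with LMP-like and the 3 with OB1-like cells, also share those cells, so their fold changes are not independent.

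**Figure D3:**
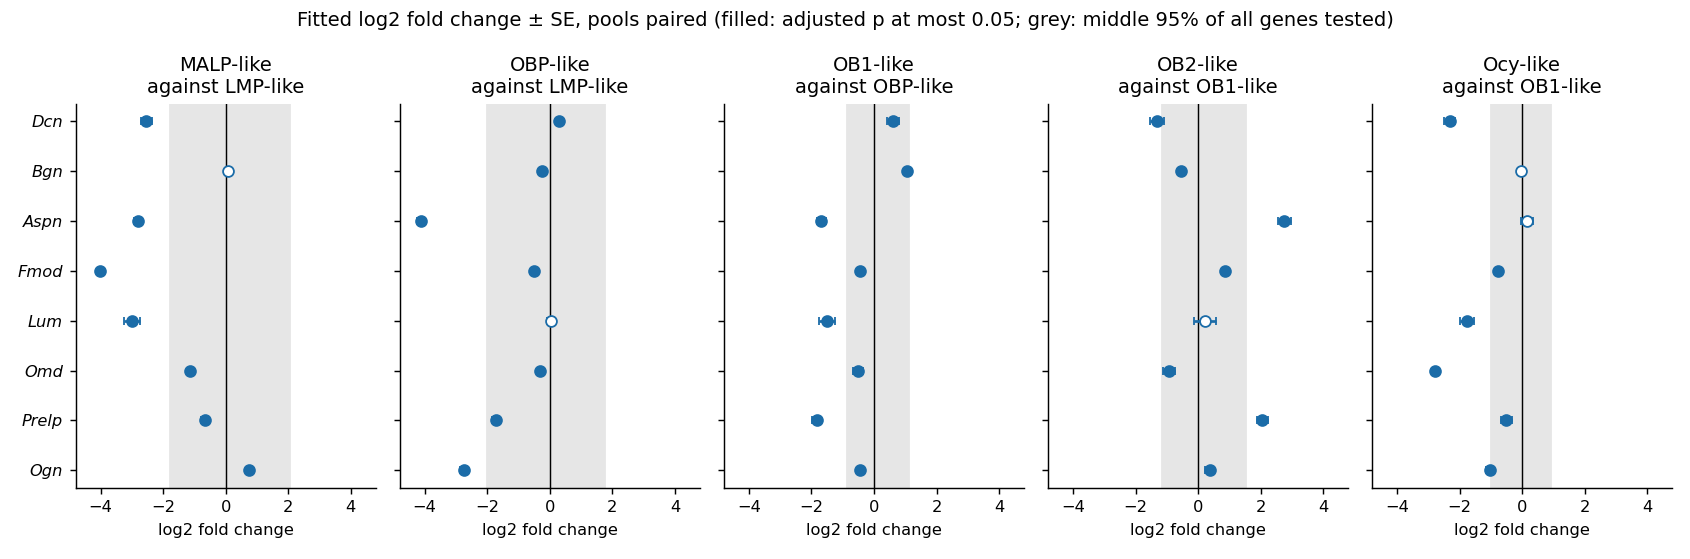
Fold changes of the 8 SLRP genes in 5 comparisons. Each panel is a comparison, the horizontal axis is the log2 fold change with its SE, filled points had an adjusted p of at most 0.05 in edgeR's quasi-likelihood test, and the grey band holds the middle 95% of all genes tested. *Fmod* at -4.02 and *Aspn* at -2.80 lie far to the left in MALP-like against LMP-like cells, *Aspn* at -4.11 in OBP-like against LMP-like cells, and *Bgn* lies near 0 in MALP-like against LMP-like and in Ocy-like against OB1-like cells (0.07 and -0.04 with TMM, above 0 in both with library size scaling).

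The share of cells with at least 1 UMI depends on depth, so 4000 UMIs were drawn from every cell. This left out 321 LMP-like, 458 MALP-like, 143 OBP-like, 235 OB1-like, 193 OB2-like, 224 Ocy-like, 1165 macrophage-like and 423 granulocyte-like cells that were shallower. The background shares below are over 15 pools for macrophage-like and 9 pools for granulocyte-like cells. The unthinned cells had median depths of 19694, 9979, 20916, 20474, 18297 and 15006 UMIs in the 6 groups in the order above, against 5624.5 in macrophage-like and 5340 in granulocyte-like cells. *Bgn* was then seen in 94.3% ± 4.10 (SD, n = 16) of LMP-like, 94.8% ± 4.65 of MALP-like and 98.6% ± 1.18 of OB1-like cells, against 17.8% ± 4.87 of macrophage-like cells. *Ogn* was seen in 85.9% ± 4.79 of MALP-like cells (91.7% unthinned), 68.5% ± 7.36 of LMP-like cells (89.8%), 23.1% ± 6.90 of OBP-like cells (58.3%) and 4.60% ± 2.96 of macrophage-like cells (6.97%). *Aspn* was seen in 48.9% ± 10.9 of LMP-like cells (64.9% unthinned) and 10.5% ± 4.20 of MALP-like cells (15.5%).

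Some shares lay near those of leukocytes from the same captures. *Aspn* was seen in 1.97% ± 1.71 of OB1-like cells (8.91% unthinned) and 2.08% ± 1.21 of Ocy-like cells (7.21%), against 2.16% ± 1.57 of macrophage-like (3.22%) and 1.97% ± 1.94 of granulocyte-like cells (2.87%). The thinned shares were thus alike, while the unthinned shares were higher in the deeper OB1-like and Ocy-like cells. The part of free RNA in them was not tested. *Lum* in Ocy-like cells, at 0.988% ± 0.873 (3.61% unthinned), and in MALP-like cells, at 1.49% ± 1.17 (2.93%), compares with 0.772% ± 0.860 of macrophage-like (0.916%) and 1.5% ± 1.52 of granulocyte-like cells (1.72%). By level *Lum* was above the macrophage-like cells of the same pool in 12 of 16 pools for Ocy-like and 13 of 16 for MALP-like cells. By contrast, *Lum* in LMP-like cells stood at 6.61% ± 2.16 (12.2% unthinned) and *Dcn* in OB1-like cells at 21.1% ± 8.38 (42.3%), against 0.896% ± 0.582 for *Dcn* in macrophage-like cells (1.36%).

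**Figure D4:**
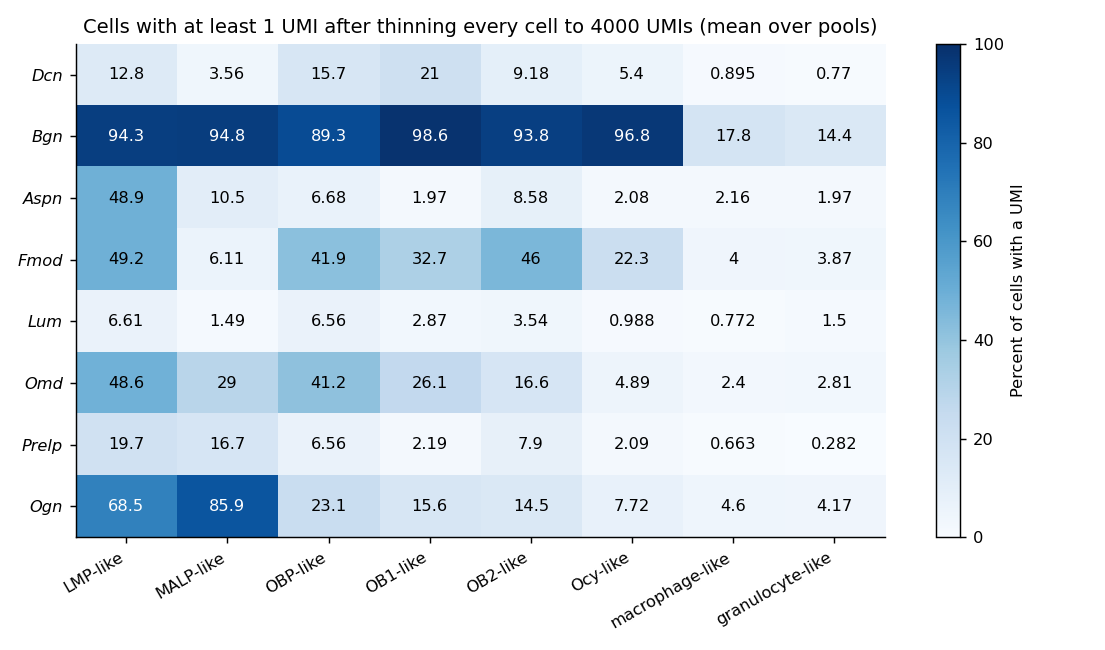
Percent of cells with at least 1 UMI of each SLRP gene. Rows are genes and columns are gated groups with macrophage-like and granulocyte-like cells as background, 4000 UMIs were drawn per cell, and the colour and number give the mean over pools in percent. *Bgn* exceeds 89% in all 6 mesenchymal groups, *Ogn* is highest in MALP-like cells (85.9%), and *Aspn* in OB1-like cells (1.97%) is no higher than in macrophage-like cells (2.16%).

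Pools are mixtures of different DO mice, and the members varied between them within each cell group. In LMP-like cells the 28 pairs of members were correlated over the 16 pools. Over 11642 genes, the deviations of LMP-like and MALP-like cells of the same pool correlated with a median r of 0.54. The share of all genes or gene pairs that vary together over pools was not computed. The relations below are therefore not shown to be particular to the members. With 8 more relations between LMP-like and MALP-like levels of a member, 36 relations were computed, and adjusted p-values are over these. *Omd* and *Ogn* varied together (Pearson r = 0.78, permutation p = 0.00028, adjusted p = 0.00504; Spearman rho = 0.79, permutation p = 0.00036, adjusted p = 0.00792), and r was 0.67 without the 2 pools farthest from the median. *Fmod* and *Prelp* did so too (r = 0.72 and rho = 0.71, permutation p = 0.00193 and 0.00314, adjusted to 0.0192 and 0.0283, r = 0.60 without 2 pools), as did *Dcn* and *Prelp* (r = 0.65 and rho = 0.66, permutation p = 0.00730 and 0.00607, adjusted to 0.0328 and 0.0364, r = 0.68 without 2 pools). *Aspn* with *Omd* (r = 0.69 and rho = 0.62, permutation p = 0.00320 and 0.01125, adjusted to 0.0192 and 0.0506, r = 0.67 without 2 pools) passed by Pearson's r only. So did *Dcn* with *Lum* (r = 0.69 and rho = 0.59, permutation p = 0.00319 and 0.0170, adjusted to 0.0192 and 0.0679), where r dropped to 0.49 without 2 pools. *Dcn* with *Fmod* passed by Spearman's rho only (r = 0.56 and rho = 0.64, permutation p = 0.0257 and 0.00971, adjusted to 0.0840 and 0.0499, r = 0.48 without 2 pools). Of the negative relations, *Fmod* with *Ogn* had the largest r and rho and passed by neither (r = -0.45 and rho = -0.56, permutation p = 0.0795 and 0.0244, adjusted to 0.159 and 0.0879, r = -0.71 without 2 pools).

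Across cell groups, *Bgn* in LMP-like and MALP-like cells of the same pool rose and fell together (r = 0.84 and rho = 0.79, permutation p = 8e-05 and 0.00044, adjusted to 0.00288 and 0.00792, n = 16), with r = 0.66 without 2 pools. *Fmod* (r = 0.68, rho = 0.75, permutation p = 0.00318 and 0.00109, adjusted to 0.0192 and 0.0131) and *Ogn* (r = 0.65, rho = 0.68, permutation p = 0.00630 and 0.00486, adjusted to 0.0324 and 0.0350) did so as well, with r = 0.53 and 0.43 without 2 pools. Both groups of a pool come from the same capture and share its free RNA, and the part of that, and of depth, in these relations was not tested. Single pools recurred at the ends. Pool 6 had the lowest *Bgn* in 5 of the 6 groups (7.64 in LMP-like and 4.91 in OBP-like cells) beside the lowest *Fmod* in all 6. Pool 13, with the lowest median depth over all kept cells, had the highest *Fmod* in LMP-like, OB1-like, OB2-like, Ocy-like and macrophage-like cells and the lowest *Omd* in LMP-like, MALP-like, OB1-like and Ocy-like cells.

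Other genes of the SLRP family and of SLRP biosynthesis were followed through 5 lists. Their counts stand beside shares over all genes tested of 39.5% higher and 35.2% lower in MALP-like against LMP-like cells, 34.7% and 35.9% in OBP-like against LMP-like, 26.2% and 30.8% in OB1-like against OBP-like, 33.2% and 31.7% in OB2-like against OB1-like and 28.2% and 27.0% in Ocy-like against OB1-like cells. These shares are with TMM. With library size scaling, all genes called higher and lower numbered 6640 and 2476 of 11642 in the first comparison and 2377 and 6401 of 11372 in the second. In the 3 later ones they numbered 1201 and 6889 of 10736, 4615 and 2491 of 10916, and 5821 and 1226 of 9957. Of 11 further family members, 5 were abundant enough to be tested between MALP-like and LMP-like cells, and 2 were higher and 2 lower (median log2 fold change -0.08, all genes 0.04). *Podn* (podocan) was 3.46-fold higher in MALP-like cells (1.79 ± 0.13, SE, edgeR adjusted p = 3.43e-11), higher in 16 of 16 pools at 0.269 against 0.0660 UMIs per 10,000. *Tsku* (tsukushi), a secreted signalling modulator, fell by 0.86 ± 0.17 on the log2 scale (edgeR adjusted p = 0.000113). In OBP-like against LMP-like cells 1 was higher and 3 lower of 5 tested (median -0.92, all genes -0.01), and 1 and 4 by library size alone. *Podnl1* fell 5.62-fold there (-2.49 ± 0.06, edgeR adjusted p = 4.32e-20), from 0.874 to 0.138 UMIs per 10,000, and *Tsku* was 1.69-fold higher. In the 3 later comparisons 0 and 1, 2 and 2, and 1 and 2 of the tested family members were higher and lower, and 0 and 2, 2 and 1, and 1 and 1 by library size alone. *Ecm2*, which lies 11.7 kb before *Aspn*, had 0.0990 UMIs per 10,000 in MALP-like and 0.0661 in LMP-like cells, and *Kera* and *Epyc*, on the far side of *Lum*, were at or near 0 in all 6 groups.

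Of the 22 enzymes that build and sulfate chondroitin and dermatan sulfate chains, 20 were tested between OBP-like and LMP-like cells. Of these 12 were higher, where 34.7% of all genes were, and 4 lower, where 35.9% were, with a median log2 fold change of 0.45 (all genes -0.01). By library size alone 11 were higher and 7 lower (median 0.22, all genes -0.24). *Chst11*, which sulfates chondroitin, rose 5.14-fold (2.36 ± 0.08, edgeR adjusted p = 1.13e-17), from 0.192 to 0.829 UMIs per 10,000. *Csgalnact1*, which starts chondroitin chains, had only 9 UMIs in OBP-like cells in all, and its log2 fold change of -4.60 ± 0.30 (edgeR adjusted p = 2.13e-12) depends on counts that low. Between MALP-like and LMP-like cells 5 were higher (39.5% of all genes) and 10 lower (35.2%) of 20 (median -0.20, all genes 0.04). With library size scaling 8 were higher and 6 lower (median 0.02, all genes 0.25). The median of the list thus lay below that of all genes with both scalings. In MALP-like cells *Chst15* was 2.39-fold higher with TMM (1.26 ± 0.06, edgeR adjusted p = 4.59e-14) and *Xylt1* fell by 0.66 ± 0.13 on the log2 scale. Of 19 tested between OB1-like and OBP-like cells 5 were higher (26.2% of all genes) and 6 lower (30.8%), and 4 and 11 by library size alone. Of 19 between OB2-like and OB1-like cells 3 were higher (33.2% of all genes) and 10 lower (31.7%), and 6 and 8 by library size alone. In Ocy-like against OB1-like cells 5 were higher (28.2% of all genes) and 9 lower (27.0%) of 20 (median -0.05, all genes 0.02). With library size scaling 9 were higher and 3 lower (median 0.17, all genes 0.24), so the list again had the lower median with both scalings. In that comparison *Ust*, an uronyl sulfotransferase, fell 2.12-fold (-1.09 ± 0.10, edgeR adjusted p = 2.64e-09), while *Csgalnact1* was higher (4.25 ± 0.24, edgeR adjusted p = 2.12e-13) on 24 UMIs in OB1-like cells.

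Among 9 keratan sulfate and tyrosine sulfation enzymes, 3 were higher and 3 lower of 6 tested in MALP-like against LMP-like cells (median 0.19), where 39.5% and 35.2% of all genes were. *Chst2* was 2.54-fold higher (1.35 ± 0.09, edgeR adjusted p = 1.76e-11), and the tyrosylprotein sulfotransferase *Tpst2* fell 2.84-fold (-1.50 ± 0.05, edgeR adjusted p = 4.39e-17) and was lower in MALP-like cells in 16 of 16 pools. In OBP-like against LMP-like cells 2 were higher (34.7% of all genes) and 3 lower (35.9%) of 5 (median -0.71), with *Tpst1* 2.11-fold lower and *B4galt1* 1.20-fold higher. By library size alone 0 were higher and 3 lower, and *B4galt1* had a log2 fold change of 0.03. In the 3 later comparisons 3 of 4, 1 of 4 and 2 of 3 tested were lower (30.8%, 31.7% and 27.0% of all genes) and 0 were higher. With library size scaling 4, 0 and 2 were lower and 0, 0 and 1 higher, to be read beside the all-gene counts with that scaling given above.

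Of 13 genes for proteases and their helpers that process or cleave SLRPs, 10 were tested in each comparison. The aggrecanase *Adamts5* was 2.93-fold higher in MALP-like than LMP-like cells (1.55 ± 0.10, edgeR adjusted p = 3.79e-12) and 3.50-fold higher in OB1-like than OBP-like cells (1.81 ± 0.12, edgeR adjusted p = 1.14e-11). It fell 3.01-fold in OB2-like and 3.36-fold in Ocy-like against OB1-like cells (edgeR adjusted p = 6.09e-09 and 1.74e-12), so that OB1-like cells held the most of it among the osteoblast groups. *Bmp1*, which cleaves the propeptides of several SLRPs and of procollagen, rose 2.25-fold from LMP-like to OBP-like cells (1.17 ± 0.07, edgeR adjusted p = 1.41e-13), where *Adamts1* fell 4.13-fold. *Mmp13* (collagenase 3) was higher in OB2-like and Ocy-like than in OB1-like cells by log2 fold changes of 1.07 ± 0.23 and 1.18 ± 0.21 (edgeR adjusted p = 0.000381 and 5.01e-05). Pools 1 and 2 stood apart, at 31.0 and 19.3 *Mmp13* UMIs per 10,000 in OB1-like cells (all others 4.63 or less) and 39.9 and 30.7 in Ocy-like cells (all others 5.59 or less), and neither entered the comparison with OB2-like cells. By count, 3 were higher and 6 lower in MALP-like against LMP-like cells (median -0.51), where 39.5% and 35.2% of all genes were, and 3 and 5 in OBP-like against LMP-like cells (median -0.21), where 34.7% and 35.9% were. In OB1-like against OBP-like cells 7 were higher and 2 lower (median 0.81), against 26.2% and 30.8% of all genes. In OB2-like against OB1-like cells there were 4 and 5 (median -0.15, against 33.2% and 31.7%) and in Ocy-like against OB1-like cells 4 and 6 (median -0.55, against 28.2% and 27.0%). By library size alone each count was the same or differed by 1.

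Among 17 other proteoglycans, *Cspg4* (NG2), a membrane proteoglycan of pericytes, fell 6.63-fold in MALP-like against LMP-like cells (-2.73 ± 0.13, edgeR adjusted p = 6.49e-14) and rose 3.62-fold in OBP-like cells (1.86 ± 0.11, edgeR adjusted p = 2.69e-13). *Vcan* (versican) fell 4.77-fold from LMP-like to OBP-like cells (-2.25 ± 0.10, edgeR adjusted p = 1.65e-15). *Acan* (aggrecan), the large cartilage proteoglycan, was higher in OB2-like and Ocy-like than in OB1-like cells by log2 fold changes of 4.40 ± 0.27 and 4.27 ± 0.21 (edgeR adjusted p = 1.26e-10 and 2.04e-14), on 106 and 119 UMIs in the OB1-like cells of the pools compared. Higher and lower genes numbered 5 and 6 of 11 tested in MALP-like against LMP-like cells (39.5% and 35.2% of all genes) and 4 and 6 of 13 in OBP-like against LMP-like cells (34.7% and 35.9%). They numbered 7 and 4 of 11 in OB1-like against OBP-like cells (26.2% and 30.8%), 4 and 2 of 12 in OB2-like against OB1-like (33.2% and 31.7%) and 5 and 7 of 12 in Ocy-like against OB1-like cells (28.2% and 27.0%). The medians in this order were -0.16, -0.15, 0.29, 0.15 and -0.21. With library size scaling the counts were 5 and 5, 2 and 7, 4 and 5, 6 and 1, and 5 and 5, to be read beside the all-gene counts with that scaling given above.

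The genes most like each member over 94 pool-by-group values were sought among 5377 genes of a mean of at least 20 CPM, leaving out gate markers. These correlations describe the data, since values from 1 pool share a capture and the groups differ widely. *Ogn* was matched most closely, by *Fbln5* (r = 0.98), *Mylk* (0.98) and *Marcks* (0.97), and *Aspn* by *Serpinb6a* (0.94), *Actg2* (0.93) and *Camk2g* (0.92). *Fbln5* encodes the elastic fibre protein fibulin-5, and *Actg2* a smooth muscle actin. *Prelp* was most like *Col6a1* (r = 0.92), *Gm1673* and *Fhl1*, and *Fmod* most like *Tnn* (tenascin-N, 0.90), *Shmt2* and *Rps27a*. *Lum* was nearest to *Srpx2* (0.81), *Postn* (periostin, 0.75) and *Tnn* (0.72), and *Omd* to *Hint1* (0.81), *Sdc2* and *Twist1*. The likenesses of *Dcn*, to *Thbs1* (0.78), *Htra3* (0.72) and *Mical2* (0.67), and of *Bgn*, to *Cpq* (0.70), *Evl* and *Nucb1*, were the weakest. Among the members themselves, the closest over the same values were *Aspn* and *Prelp* (r = 0.86), *Ogn* and *Prelp* (0.82), *Aspn* and *Ogn* (0.77) and the neighbours *Dcn* and *Lum* (0.71), while *Bgn* and *Lum* ran most opposite (-0.50).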

How the data were processed

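Single-cell libraries of 16 pools were made with the 10x Single Cell 3' v2 kit. Per the labels, the authors counted UMIs with Cell Ranger 5.0.0 on mm10, and the deposited matrices hold raw UMI counts per gene and barcode, with no normalization, so depth per pool and cell differs. The same sequencing run was used for every pool, and columns of other series numbered 0. The labels give no order of the runs. With Python 3.11.15, barcodes were kept if they held 400 to 6200 genes and no more than 10% of UMIs from mitochondrial genes, 20% from *Rpl* and 15% from *Rps* genes. Cells of at least 2000 UMIs with at least 30 stromal-marker UMIs per 10,000 and under 2 for leukocyte, endothelial and glial markers took the group with the highest mean z-score over its markers (at least 0.5, leading by 0.25). Macrophage-like, granulocyte-like and other leukocyte groups had at least 10 leukocyte-marker UMIs per 10,000. That level had to exceed 0.1 times their stromal-marker level, with no upper limit on stromal markers. Marker lists were written first and the thresholds were set after seeing the data. No doublet caller was run, and the droplets of most UMIs (6044) were left out in an alternative.

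UMIs were summed per pool and group (at least 20 cells) and tested with edgeR 4.0.16 (R 4.3.3) by the quasi-likelihood method with filterByExpr, TMM, pool as a block and Benjamini-Hochberg adjustment over all genes tested. SE is the absolute log2 fold change over the square root of F. The procedure was tested on simulated counts. Both groups of a pool come from the same capture of the same mice, which is where the pairing comes from. Deviations of the groups of the same pool from their group means correlated with a median r of 0.33 to 0.58 over the comparisons (lowest 0.21), against -0.04 to -0.02 between different pools. Pools differ in their mice and in their capture, and the study took the pool as its batch. The p-values measure the spread between pools, in which mice and capture cannot be told apart. Counting intervals cover counting error only.

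The 8 members and 5 gene lists were chosen with earlier results of these data known. Text names all members, the 3 genes most like each (Pearson r over log2 of CPM plus 10), and from each list and comparison at most the gene with the largest change called in each direction. *Kera*, *Epyc* and *Ecm2* were named for their position. DESeq2 1.42.0, other scaling, filters, runs, gates, depth minimums and left-out pools were alternatives. Library size scaling, cells without leukocyte UMIs and leaving out pools other than 13 were added after seeing the data.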

Additional observations from a re-analysis of the deposited data

How the results depend on the processing

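Of 1144 member fold changes recomputed under 29 alternatives, 1089 kept their direction and their side of the threshold, 30 lost and 2 gained a call, and 23 changed sign. Of the 35 called member results, 29 kept sign and call throughout and 34 kept their sign. All 432 recomputed levels moved by less than the spread between pools. Counts of genes called stayed within 1.5 times except that, with no low-count filter, calls past 2-fold rose to 3034, 3094, 1122, 1882 and 1083 (from 1673, 1832, 548, 1074 and 451, in the order of the report), since more low genes were tested. Without the replicate block, which drops the pairing of groups by pool, genes called numbered 7607, 7042, 4851, 6483 and 3822 (from 8696, 8021, 6124, 7090 and 5488), and *Dcn* and *Bgn* in OBP-like against LMP-like cells (0.31 and -0.24, adjusted p = 0.289 and 0.0851), *Dcn* and *Omd* in OB1-like against OBP-like (0.56 and -0.42, 0.0870 and 0.0713), *Ogn* in OB2-like against OB1-like (0.46, 0.0744) and *Prelp* in Ocy-like against OB1-like cells (-0.47, 0.111) lost their calls. It changed no other member's call.

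Log2 fold changes turned as follows, and the cause was not tested. *Bgn* in MALP-like against LMP-like cells was -0.11 with both runs summed (which may count a molecule in both) and -0.025 without the droplets of most UMIs, and it was called at 0.17 with an LMP gate without contractile genes (edgeR adjusted p = 0.0125) and at 0.29 by library size. *Dcn* in OBP-like against LMP-like cells was -0.042 with that gate. *Lum* there, not called, was -0.00052 with RLE factors, -0.032 with DESeq2, -0.026 unfiltered, -0.041 in the other run, -0.057 with a larger gate lead, -0.0087 with at least 50 cells, -0.34 with that LMP gate (edgeR adjusted p = 0.0474), -0.21 by library size, -0.026 in cells without leukocyte UMIs, and -0.064 to 0.072 when single pools were left out (turned by pools 3, 7, 8, 12 and 14). *Lum* in OB2-like against OB1-like cells was -0.20 with that LMP gate and ran from -0.0033 (without pool 6) to 0.46. *Bgn* in Ocy-like against OB1-like cells was 0.19 by library size. *Aspn* there, near the macrophage-like level, was -0.45 with a larger lead, -0.045 without the droplets of most UMIs and -0.027 in cells without leukocyte UMIs. *Dcn* in OBP-like against LMP-like cells also lost its call with DESeq2, a larger lead, library size (0.05) and without leukocyte UMIs, *Omd* in OB1-like against OBP-like with at least 50 cells (-0.36), *Ogn* in OB2-like against OB1-like in the other run, both runs, a larger lead (0.01), at least 50 cells and without leukocyte UMIs, and *Prelp* in Ocy-like against OB1-like in the other run (-0.11), both runs, a larger lead, library size and without leukocyte UMIs.

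Leaving out single pools gave 8444 to 8704, 7812 to 8051, 5789 to 6142, 6705 to 7085 and 5266 to 5483 genes called, and 1625 to 1718, 1800 to 1864, 524 to 590, 959 to 1137 and 445 to 477 past 2-fold. The paired differences that turned were *Bgn* in MALP-like over OB1-like cells, from -0.168 to 0.471 UMIs per 10,000, and *Lum* in OB2-like over OB1-like cells, from -0.00980 to 0.0599. Depth limits *Lum* in the Ocy-like cells of pool 7, where 0 UMIs allow a level of up to 0.0235. *Aspn* in OB1-like and Ocy-like cells rested on 811 and 483 UMIs and lay near the macrophage-like level.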

Other observations

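Cells outside the 6 mesenchymal groups entered no fitted comparison, and the levels of some of them are given summed over pools with 95% Poisson intervals, which cover counting error only. The 77 cells gated as endothelial had 3.59 *Bgn* UMIs per 10,000 (3.25 to 3.95), and *Dcn* was at 0.0347 (0.00946 to 0.0889). The 110 cells gated as glial had 2.06 *Bgn* (1.79 to 2.37) and 0.910 *Fmod* (0.732 to 1.12). In 1061 osteoclast-like cells *Bgn* stood at 1.65 (1.57 to 1.74) and *Ogn* at 0.602 (0.554 to 0.653), and in 206 B cell-like cells at 1.08 (0.932 to 1.24) and 0.720 (0.600 to 0.856). The part of free RNA and of droplets with more than 1 cell in these values was not tested.

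The 14389 stromal cells that no gate took had 11.6 *Bgn* (11.5 to 11.6), 2.20 *Ogn* (2.18 to 2.22), 2.15 *Fmod* (2.13 to 2.16), 1.46 *Omd* (1.45 to 1.48) and 1.02 *Aspn* (1.01 to 1.03) UMIs per 10,000. The 16130 cells below 2000 UMIs had 8.11 *Bgn* (7.99 to 8.24) and 2.49 *Ogn* (2.42 to 2.56).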
